A study of Mus musculus with 18 samples.

Results

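Tissue kallikreins are secreted, trypsin-like serine proteases. Klk1, the founding member, cleaves kininogens to release kinins, short peptides that act through the bradykinin receptors on vessels, nerves and leukocytes and are broken down by peptidases such as angiotensin-converting enzyme. In mice the gene has been copied repeatedly beside itself, and the copies, named Klk1b, are best known as abundant proteases of the submandibular salivary gland, where some of them bind or process growth factors. Klk1b9 is also known as a binding protein of epidermal growth factor.

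The genes followed were Klk1, Klk1b1, Klk1b9, Klk1b11 and Klk1b27. They were 5 of 55536 gene IDs in the count files and 5 of 24 genes and pseudogenes named Klk1 or Klk1b, and they were chosen by their measured CPM, which earlier results of these data had shown to differ between the cultures. Cultures of mouse bone marrow cells were sequenced as bulk poly(A) RNA in 18 libraries, 3 for each of 6 groups, and each library came from a pool of 3 mice. Donors were wild-type (WT) BALB/c mice or mice labelled Cysltr1-/-, which should lack a receptor for cysteinyl leukotrienes. The design text does not say clearly whether the latter were BALB/c too, so a difference of strain, if there was one, cannot be told apart from the genotype label. The 3 cultures all held GM-CSF (40 ng/mL), a myeloid growth factor: GM-CSF alone, GM-CSF with IL-6 (40 ng/mL), and GM-CSF with 24 h medium of EMT6 cells, a mouse mammary carcinoma line, at 50% of the volume. Cells were harvested after 4 days, and the labels do not tell whether 24 h is the time of conditioning or of exposure. Nothing in the labels says whether the 3 pools of a group shared mice, so p-values measure the spread between these libraries.

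Library size, the reads assigned to genes, ran from 9583728 to 31989342 counts. Levels are given as CPM, the count of a gene scaled by the library size. Cysltr1 itself was not lower in the libraries labelled Cysltr1-/-: its mean was 50.9 ± 3.01 CPM (SD, n = 3) in WT and 70.5 ± 1.28 in labelled Cysltr1-/- libraries under GM-CSF alone. Every genotype comparison below is therefore one between labels. Reads in no annotated feature averaged 14.2% of reads in WT and 17.6% in labelled Cysltr1-/- libraries under GM-CSF, 14.5% and 19.5% with IL-6, and 36.2% and 50.2% in EMT6 medium. From the density of such reads, taken as even along the genome, a gene of the length of Klk1b11 would receive 4.59 to 5.18 counts in the WT EMT6 libraries. In the labelled Cysltr1-/- EMT6 libraries it would receive 6.34 to 8.32. Such a count is called the expected background.

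The 5 genes lie on the plus strand of chromosome 7 (mm10) and have 5 exons each. Klk1b1 is at chr7:43966751-43971318, Klk1b9 at chr7:43976061-43980376, Klk1b11 at chr7:43995877-43999875 and Klk1b27 at chr7:44052290-44056712. Klk1 stands apart at chr7:44225360-44229618, at the far end of the Klk1b copies. Klk1b1 to Klk1b27 span 89.962 kb. The antisense gene Gm44756 spans Klk1b1 and overlaps Klk1b9, and Gm10109 overlaps Klk1, but neither shares an exon base with them.

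Because reads of related copies can be assigned to the wrong one, the coding sequences of the reference transcripts were aligned. Identity between pairs ran from 84.62% (Klk1 and Klk1b27) to 93.1% (Klk1b1 and Klk1b9), and Klk1b11 and Klk1b27 were 90.13% identical. The copies are thus related rather than identical: Klk1b1 and Klk1b9, the closest pair, differ at 54 of 783 coding bases. The 60 aligned bases that vary most are given for each gene, with bases that differ from Klk1b11 in capitals. They begin at coding base 213, or 222 in Klk1b27, and 25 of the 60 columns vary.
Klk1b11: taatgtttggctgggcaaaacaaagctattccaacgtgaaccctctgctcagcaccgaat
Klk1b27: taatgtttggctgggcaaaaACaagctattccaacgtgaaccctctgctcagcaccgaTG
Klk1b1: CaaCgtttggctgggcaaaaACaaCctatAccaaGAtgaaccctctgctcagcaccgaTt
Klk1b9: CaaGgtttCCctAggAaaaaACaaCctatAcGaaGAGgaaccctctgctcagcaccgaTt
Klk1: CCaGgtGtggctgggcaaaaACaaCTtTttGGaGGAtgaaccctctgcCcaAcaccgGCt
Near the start of the coding sequence the 5 genes can hardly be told apart, and only 2 of 60 columns vary there, both in Klk1b27. The shared stretch and the Klk1b27 version are shown with the differing bases in capitals.
Klk1b11, coding bases 5 to 64: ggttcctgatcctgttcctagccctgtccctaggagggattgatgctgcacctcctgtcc
Klk1b27, coding bases 5 to 64: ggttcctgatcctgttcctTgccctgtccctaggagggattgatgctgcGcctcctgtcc
Of all 50-base stretches of each reference transcript, 71.6% in Klk1 and 82.83% to 87.22% in the 4 Klk1b genes occurred in no other annotated transcript. Of 150-base stretches, 100% did in each of the 5. The read length is not given in the sources used here, so the share of reads that could be placed in one copy is unknown, and the division of counts between copies is uncertain by that much.

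The promoters of the 5 genes were read from RefSeq (GRCm38.p6), which held all 5. The last 100 bases before each annotated start are shown. The 4 Klk1b windows carry a TTTAAA box there, in capitals, and the Klk1 window does not.
Klk1b11, chr7:43995777-43995876: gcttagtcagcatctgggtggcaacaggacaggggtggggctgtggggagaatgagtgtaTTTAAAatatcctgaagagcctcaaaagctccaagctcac
Klk1b1, chr7:43966651-43966750: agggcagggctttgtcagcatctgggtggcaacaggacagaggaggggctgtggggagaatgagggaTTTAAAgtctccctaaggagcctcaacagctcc
Klk1b9, chr7:43975961-43976060: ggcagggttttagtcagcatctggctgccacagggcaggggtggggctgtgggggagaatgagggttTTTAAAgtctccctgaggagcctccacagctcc
Klk1b27, chr7:44052190-44052289: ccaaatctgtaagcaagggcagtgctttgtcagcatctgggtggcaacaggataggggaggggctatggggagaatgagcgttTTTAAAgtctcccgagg
Klk1, chr7:44225260-44225359: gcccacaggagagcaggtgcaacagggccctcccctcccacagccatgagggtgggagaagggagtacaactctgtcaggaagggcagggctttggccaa
The box starts 40 bases before the start of Klk1b11, 33 before Klk1b1 and Klk1b9, and 17 before Klk1b27. TTTAAA occurs, on either strand, in 12.08% of 32851 RefSeq promoter windows of the same 250 bases. The 4 Klk1b windows are related copies, 80% to 84.48% identical over 227 to 246 aligned bases, so they are not independent matches. Klk1 aligned with them over only 160 to 182 bases, so its window may not cover the matching positions. Whether a matching box lies outside the Klk1 window was not tested. The TATAAA box was found in none of the 5 windows, on either strand, against 12.37% of all. Also absent were the PU.1-type core GAGGAA, held by 23.25% of all windows, and the GATA-type motif AGATAA, held by 9.988%. The STAT-type motif TTCNNNGAA was absent too, against 7.02% of all. The STAT6-type motif, whose spacer is 1 base longer, was found in Klk1b1 alone, 1 of the 5, against 5.854% of all. Such matches describe the letters only.

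The kallikreins followed the culture in one order: most abundant under GM-CSF alone, lower with IL-6 and lowest in EMT6 medium. The sum of the 5 genes averaged 232 ± 6.96 CPM in WT with IL-6 and 161 ± 2.30 in labelled Cysltr1-/- with IL-6 (SD, n = 3). It was 9.46 ± 0.446 and 15.2 ± 5.32 CPM in EMT6 medium. Under GM-CSF alone it was 605 ± 14.6 in labelled Cysltr1-/- libraries and 1006 ± 78.0 in WT. No 2 groups next to each other in this order overlapped. Because the genes were chosen for this culture pattern, their culture differences are given as descriptions without a test. The WT libraries that helped choose them also enter the genotype tests and interactions below, so those p-values are not independent of the choice.

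**Figure D1:**
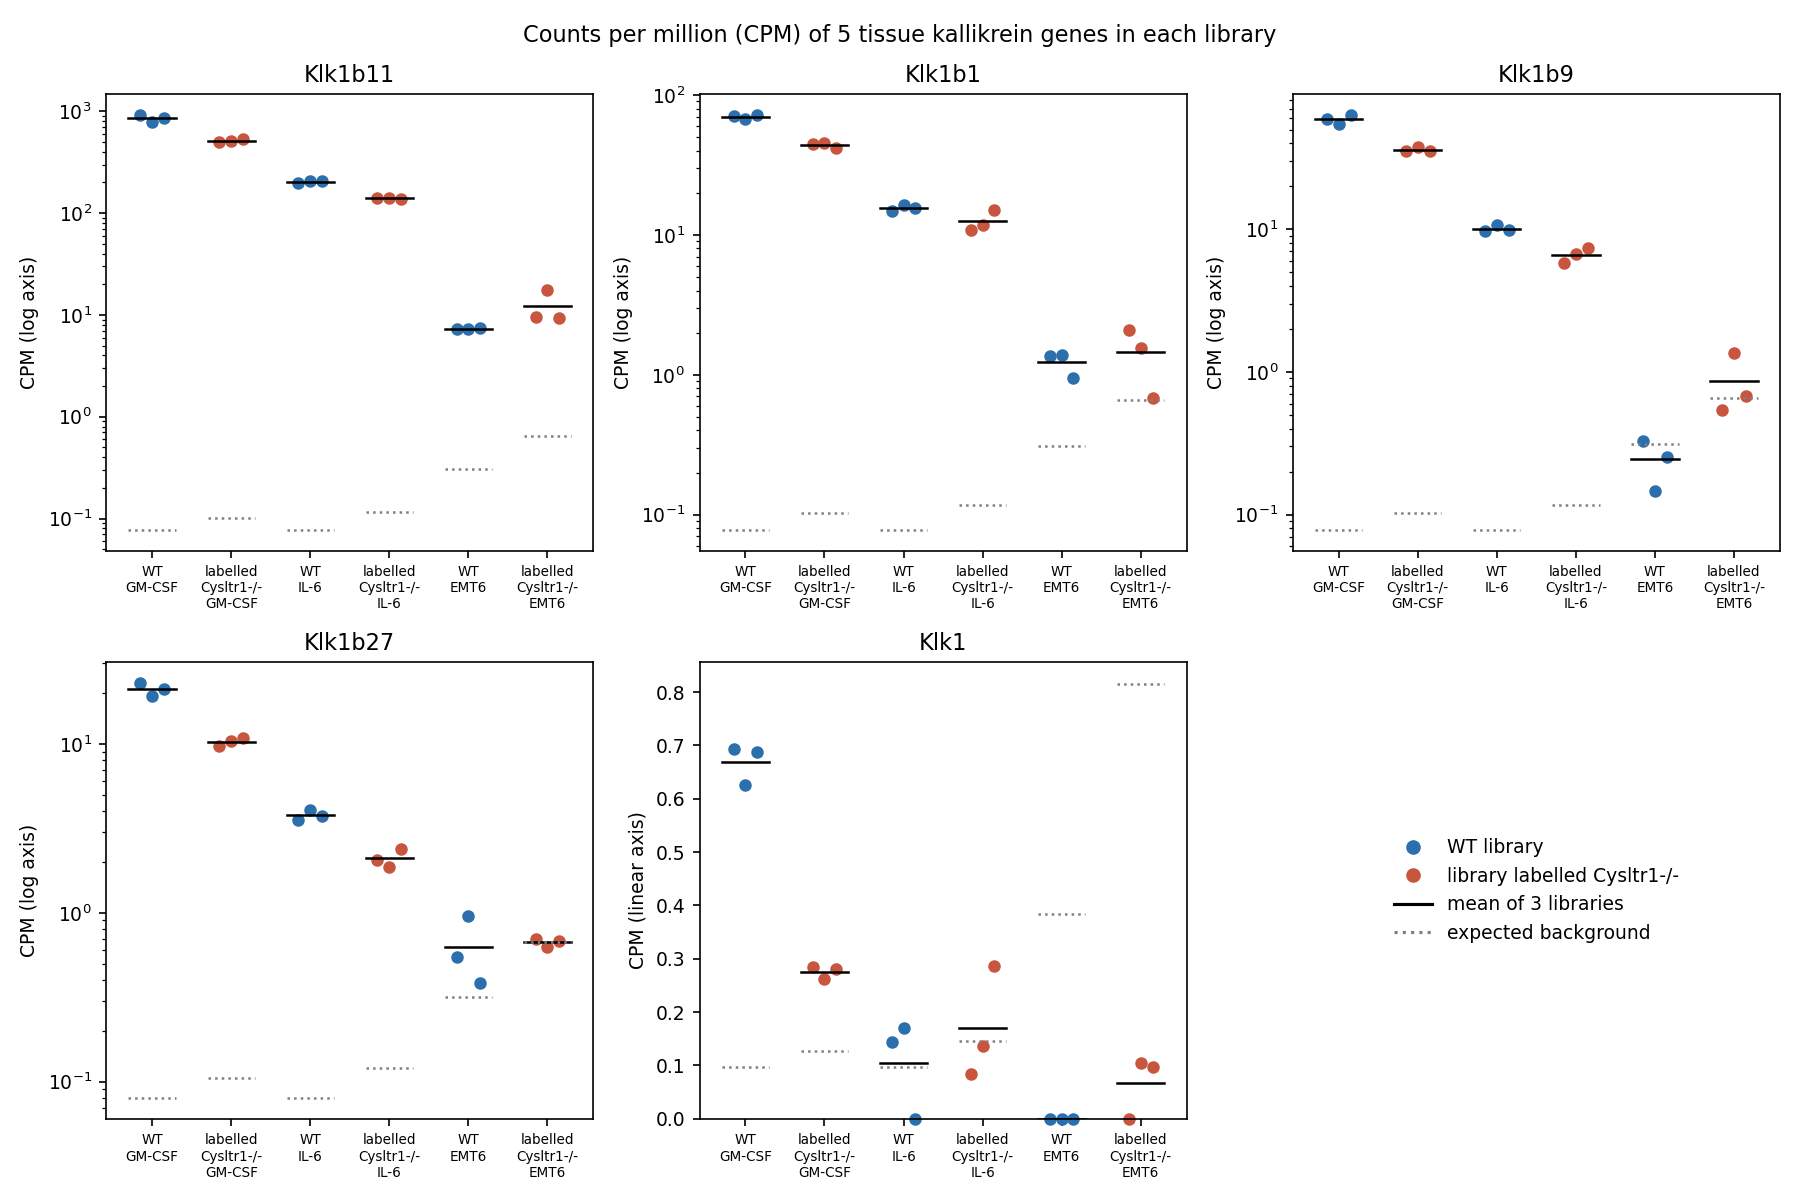
CPM of the 5 kallikrein genes (vertical axes; logarithmic for the Klk1b genes, linear for Klk1) in each of 18 libraries, by genotype label and culture. Points are libraries, black bars are means of 3, and dotted bars are the expected background; Klk1b11 falls from 855 CPM in WT GM-CSF to 7.35 in WT EMT6 medium, while in EMT6 medium Klk1b9 lies near the background in both genotypes and Klk1b27 in the labelled Cysltr1-/- libraries.

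Klk1b11 carried most of the signal. Its level was 926, 783 and 856 CPM in the 3 WT libraries under GM-CSF and 501, 509 and 532 in the labelled Cysltr1-/- libraries. With IL-6 it was 196, 207 and 205 CPM in WT and 141, 140 and 139 in labelled Cysltr1-/-. In EMT6 medium it was 7.35, 7.32 and 7.37 CPM in WT and 9.57, 17.6 and 9.27 in labelled Cysltr1-/-, where replicate 2 stood apart. No 2 of the 6 groups overlapped. In EMT6 medium Klk1b11 had 95 to 169 counts in every library, well over its expected background. The fitted fall with IL-6 was 4.21-fold in WT (log2 fold change -2.07 ± 0.07, SE) and 3.73-fold in labelled Cysltr1-/- (-1.90 ± 0.07), with edgeR's quasi-likelihood model over all 18 libraries. The fitted fall in EMT6 medium against GM-CSF alone was 164-fold in WT (-7.36 ± 0.10) and 66.1-fold in labelled Cysltr1-/- (-6.05 ± 0.10).

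Klk1b1 was the second of the 5, at 71.1, 67.1 and 72.3 CPM in WT under GM-CSF and 44.8, 45.3 and 41.9 in labelled Cysltr1-/-. With IL-6 it was 14.9, 16.2 and 15.5 CPM in WT and 10.8, 11.7 and 15.1 in labelled Cysltr1-/-. In EMT6 medium it was 1.37, 1.39 and 0.953 CPM in WT and 2.08, 1.57 and 0.683 in labelled Cysltr1-/-. The genotypes overlapped in the last 2 cultures and were apart under GM-CSF. Replicate 3 of labelled Cysltr1-/- in EMT6 medium had 7 counts, beside an expected background of 6.75. The fitted falls in EMT6 medium against GM-CSF were -6.31 ± 0.13 and -5.49 ± 0.14 in log2, and those with IL-6 were -2.17 ± 0.08 and -1.83 ± 0.08, for WT and labelled Cysltr1-/- in turn.

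Klk1b9, the epidermal growth factor-binding copy, had 59.6, 54.4 and 63.5 CPM in WT and 35.6, 37.5 and 35.3 in labelled Cysltr1-/- under GM-CSF. With IL-6 it had 9.74, 10.7 and 9.88 CPM in WT and 5.76, 6.72 and 7.43 in labelled Cysltr1-/-. The 4 groups did not overlap. In EMT6 medium it had 6, 2 and 4 counts in WT, where the expected background was 5.22, 4.62 and 4.83, and 7, 13 and 7 counts in labelled Cysltr1-/-, where it was 8.39, 6.39 and 6.77. Its EMT6 counts therefore lay within 3 counts of the background in 5 of 6 libraries, all but labelled Cysltr1-/- replicate 2, and the fitted fall there (-8.33 ± 0.15 in log2 in WT) rests on these few counts. With IL-6 the fitted falls were -2.55 ± 0.07 in WT and -2.47 ± 0.08 in labelled Cysltr1-/-.

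Klk1b27, a copy also described in the testis, had 23.0, 19.4 and 21.2 CPM in WT and 9.76, 10.4 and 10.8 in labelled Cysltr1-/- under GM-CSF. With IL-6 it had 3.55, 4.07 and 3.74 CPM in WT and 2.06, 1.87 and 2.38 in labelled Cysltr1-/-. These 4 groups did not overlap. In EMT6 medium it had 10, 13 and 6 counts in WT and 9, 6 and 7 in labelled Cysltr1-/-, beside an expected background of 5.33, 4.72 and 4.94 and of 8.57, 6.53 and 6.92. The labelled Cysltr1-/- counts thus lay within 1 count of the background, and the genotypes overlapped. With IL-6 the fitted falls were -2.49 ± 0.10 in WT and -2.30 ± 0.13 in labelled Cysltr1-/-.

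Klk1, the kinin-releasing enzyme itself, was barely detected. It had 17, 12 and 22 counts in WT under GM-CSF and 7, 7 and 5 in labelled Cysltr1-/-, then 4, 4 and 0 with IL-6 in WT and 2, 3 and 7 in labelled Cysltr1-/-. In EMT6 medium it had no counts in WT and 0, 1 and 1 in labelled Cysltr1-/-, below its expected background in all 6 libraries. It passed the low-count filter through the WT GM-CSF libraries, the only ones with 10 or more counts. As a description, its CPM from summed counts was 6.74-fold higher in WT under GM-CSF than with IL-6, and at least 10.7-fold higher than in EMT6 medium, where 3 counts over the group would be 0.063 CPM. For labelled Cysltr1-/- the ratios were 1.60 and, with 2 counts in EMT6 medium, 4.5 (95% interval 1.09 to 39.9, counting error only).

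The median log2 fold change of the 4 Klk1b genes with IL-6 was -2.33 in WT and -2.10 in labelled Cysltr1-/-, beside medians over all genes of -0.03 and 0.02. In WT 21.7% of all genes were called with IL-6, 10.4% higher and 11.3% lower, and in labelled Cysltr1-/- 14.3%, 5.54% higher and 8.77% lower. In EMT6 medium against GM-CSF the median of the 4 was -6.83 in WT and -5.77 in labelled Cysltr1-/-, beside 0.49 and 0.83 over all genes. The labelled Cysltr1-/- median was -6.81 after subtracting the expected background, near which Klk1b9 and Klk1b27 lay. In EMT6 medium against GM-CSF 81.3% of all genes were called in WT, 46.8% higher and 34.5% lower, and 87.2% in labelled Cysltr1-/-, 54.3% higher and 32.9% lower. Against IL-6 the median in EMT6 medium was -4.71 in WT and -3.62 in labelled Cysltr1-/-, the latter -4.67 with the background subtracted. In that comparison 81.8% of all genes were called in WT, 48.1% higher and 33.8% lower, and 86.2% in labelled Cysltr1-/-, 53.8% higher and 32.4% lower.

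Compared per kilobase of exon in WT under GM-CSF, the levels were 991 CPM per kb for Klk1b11, 80.9 for Klk1b1, 68.0 for Klk1b9, 23.8 for Klk1b27 and 0.621 for Klk1. The order was the same in labelled Cysltr1-/- under GM-CSF, at 596, 50.7, 41.5, 11.6 and 0.256 CPM per kb. Klk1b11 made up 85.0% ± 0.669 of the summed counts of the 5 genes in WT and 85.0% ± 0.691 in labelled Cysltr1-/- under GM-CSF, and 87.3% ± 0.341 and 86.7% ± 1.86 with IL-6 (SD, n = 3). In EMT6 medium its share was 77.8% ± 3.97 and 79.4% ± 4.56. The share of Klk1b27 was 2.1% ± 0.0205 in WT and 1.70% ± 0.0491 in labelled Cysltr1-/- under GM-CSF, without overlap, and 1.63% ± 0.0699 and 1.30% ± 0.141 with IL-6. In these 2 cultures, and for Klk1b9 in EMT6 medium and Klk1 under GM-CSF, the exact two-sided permutation p was 0.1, the smallest that 3 against 3 allows. After Benjamini-Hochberg adjustment over 15 comparisons it was 0.375.

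**Figure D2:**
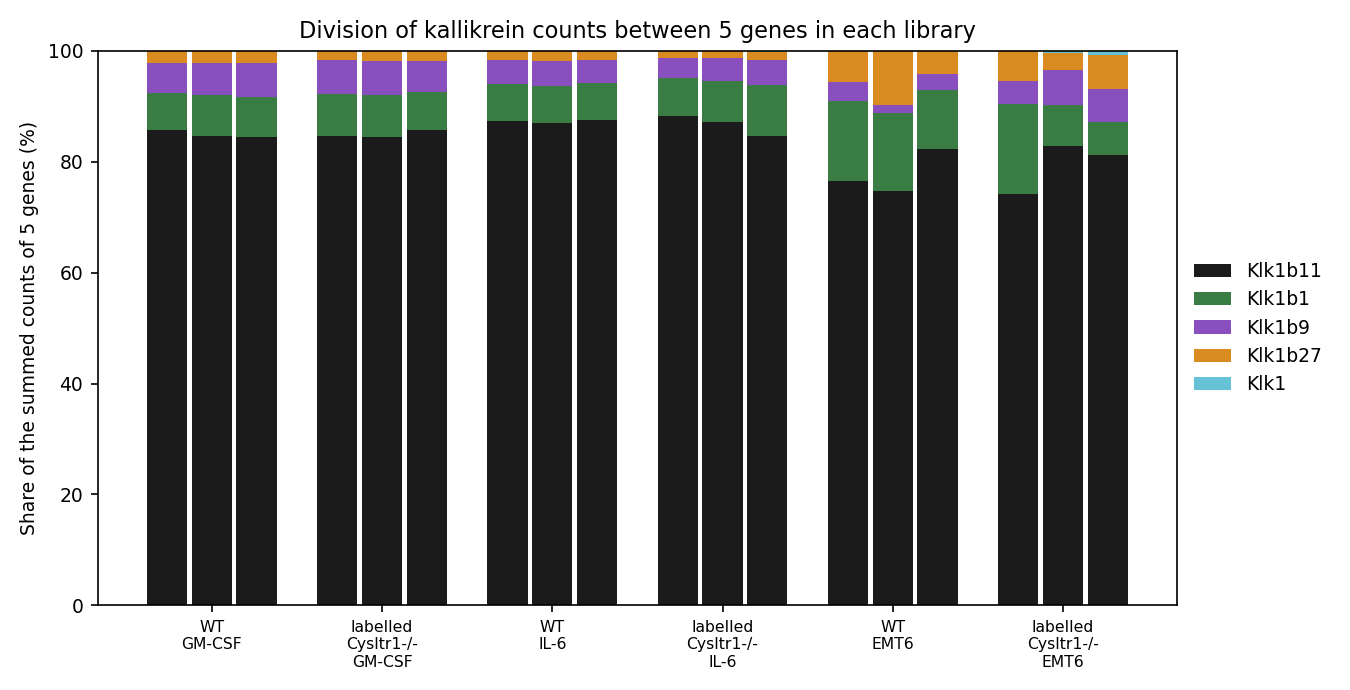
Share (%) of each gene in the summed counts of the 5 kallikreins, 1 bar per library, 3 libraries per group. Klk1b11 fills 74.3% to 88.3% of each bar, and the small shares spread most in EMT6 medium, where few counts remain.

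Under GM-CSF all 4 Klk1b genes were lower in libraries labelled Cysltr1-/- than in WT, by 1.73- to 2.24-fold. Klk1b11 fell 1.81-fold (log2 fold change -0.85 ± 0.07, SE; adjusted p = 1.48e-14, edgeR quasi-likelihood test, Benjamini-Hochberg over 28334 genes). Klk1b9 fell 1.78-fold (-0.83 ± 0.06; adjusted p = 1.42e-14), Klk1b1 1.73-fold (-0.79 ± 0.07; 3.21e-13) and Klk1b27 2.24-fold (-1.17 ± 0.09; 2.30e-14). None of these 4 overlapped between genotypes. In the same comparison 27.3% of all genes tested were called, 17.2% lower and 10.1% higher, and the median over all genes was 0.04. Klk1 had 19 counts in the 3 labelled Cysltr1-/- libraries and 51 in WT, which is 2.45-fold lower by CPM. No test is given for it here, since it entered the fit through these WT libraries.

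With IL-6 the same 4 genes were lower in labelled Cysltr1-/- libraries. The log2 fold changes were -0.68 ± 0.07 for Klk1b11 (adjusted p = 5.82e-11), -0.75 ± 0.10 for Klk1b9 (3.51e-08), -0.98 ± 0.15 for Klk1b27 (9.19e-07) and -0.45 ± 0.09 for Klk1b1 (9.62e-05), by the same edgeR test. Of all genes, 30.5% were called here, 18.4% lower and 12.1% higher, with a median of 0.09. Klk1 had 8 counts in WT and 12 in labelled Cysltr1-/- and did not pass the test (0.60 ± 0.71; adjusted p = 0.558). Whether the genotype difference itself changed with IL-6 was tested as an interaction, where 7.38% of all genes were called, 2.92% higher and 4.46% lower. By edgeR 0 of the 4 Klk1b genes passed, only Klk1b1 had an unadjusted p under 0.05, and DESeq2 called 0 of them. No test is given for Klk1, since the interaction includes the WT GM-CSF libraries through which it entered the fit. Klk1b1 was the nearest, with 0.34 ± 0.11 and an adjusted p of 0.0547, and it passed under 12 of the alternatives tried.

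**Figure D3:**
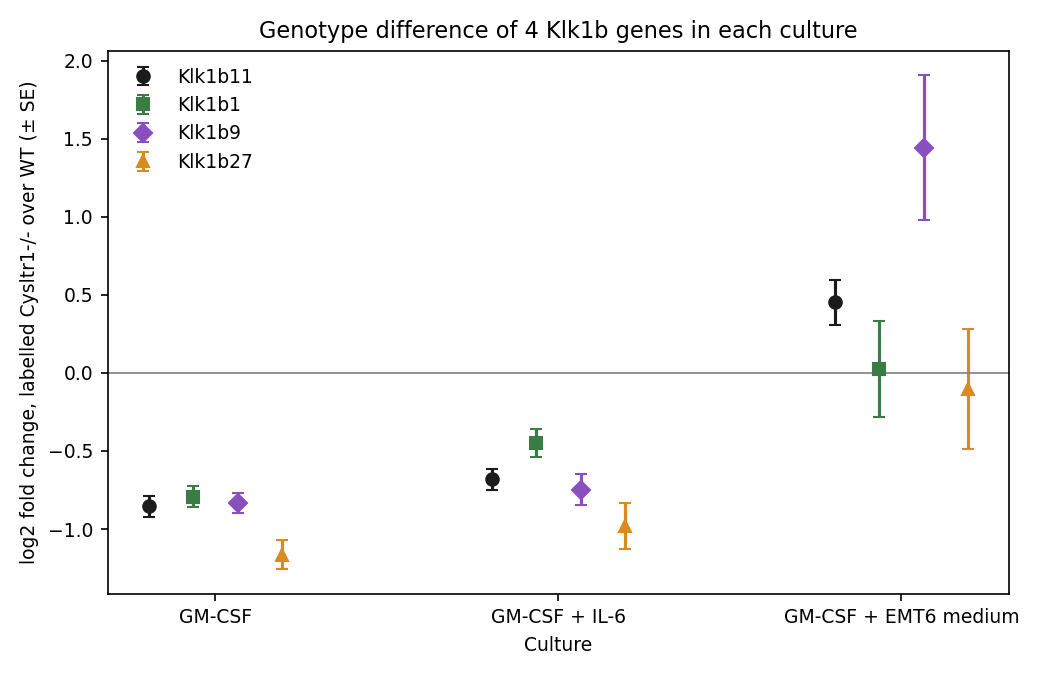
Log2 fold change of labelled Cysltr1-/- over WT (vertical axis; points with SE bars from edgeR) for 4 Klk1b genes in the 3 cultures. All 4 lie between -1.17 and -0.45 under GM-CSF and with IL-6, and between -0.10 and 1.44 in EMT6 medium.

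In EMT6 medium 2 of the Klk1b genes were called higher in labelled Cysltr1-/- libraries. Klk1b11 was 1.37-fold higher (0.45 ± 0.14; adjusted p = 0.00837, edgeR) and Klk1b9 2.72-fold higher (1.44 ± 0.46; adjusted p = 0.00903), in a comparison where 52.1% of all genes were called, 32.3% higher and 19.8% lower, with a median of 0.27. Labelled Cysltr1-/- replicate 2 held both calls: without it Klk1b11 stood at 0.00 ± 0.12 (adjusted p = 0.983) and Klk1b9 at 0.88 ± 0.53 (0.185). The call of Klk1b11 was also lost without WT EMT6 replicate 1 (adjusted p = 0.0790), without any one of the labelled Cysltr1-/- GM-CSF libraries (0.0513 to 0.0524), with DESeq2 (0.0725) and with only the groups compared (0.0510). That of Klk1b9 was lost after subtracting the background (0.0931), at which its counts lay. Klk1b1 (0.03 ± 0.31) and Klk1b27 (-0.10 ± 0.39) did not pass, and both changed sign with another scaling. After subtracting the background, at which its labelled Cysltr1-/- counts lay, Klk1b27 was lower (-5.51; adjusted p = 0.00327, edgeR). Klk1 counts lay below the expected background in every EMT6 library, so the amount subtracted may be too high in this cluster.

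The genotype difference of Klk1b11 in EMT6 medium differed from that under GM-CSF: the interaction was 1.31 ± 0.16 in log2 (adjusted p = 9.21e-09, edgeR), where 25.6% of all genes were called, 13.2% higher and 12.3% lower. Without labelled Cysltr1-/- EMT6 replicate 2 it was 0.88 and kept its call, and it did so under every other alternative run for it. Klk1b9 had an interaction of 2.28 ± 0.47 (adjusted p = 1.72e-04), resting on EMT6 counts at the background. Klk1b1 (0.82 ± 0.32; adjusted p = 0.0543) and Klk1b27 (1.06 ± 0.41; 0.0515) did not pass, but each did under some of the alternatives tried. No test is given for Klk1, which entered the fit through the WT GM-CSF libraries. Averaged over the 3 cultures, Klk1b11 (-0.36 ± 0.06), Klk1b1 (-0.41 ± 0.11) and Klk1b27 (-0.75 ± 0.14) were called lower in labelled Cysltr1-/- libraries (adjusted p = 1.30e-06, 0.00192 and 2.56e-05 by edgeR), against 24.6% of all genes lower and 29.3% higher, 53.9% in all. With library size alone Klk1b1 lost this call (-0.24; adjusted p = 0.0678). Klk1b9 (-0.05 ± 0.21) did not pass, and Klk1 is again left without a test.

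The rest of the cluster was thinly expressed under GM-CSF. Of 37 kallikrein genes annotated there, the 32 others had mean levels of at most 2.19 CPM in WT under GM-CSF, that of Klk8, while Klk1b11 had 855. The 5 followed genes made up 99.6% of all Klk1 and Klk1b counts in WT under GM-CSF and 98.8% in labelled Cysltr1-/- with IL-6, but 69.9% and 61.5% in EMT6 medium in WT and labelled Cysltr1-/-. The summed level of the other Klk1 and Klk1b genes was 4.44 ± 0.334 CPM in WT under GM-CSF and 4.08 ± 0.361 in EMT6 medium, and 9.12 ± 1.11 in labelled Cysltr1-/- EMT6 libraries.

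**Figure D4:**
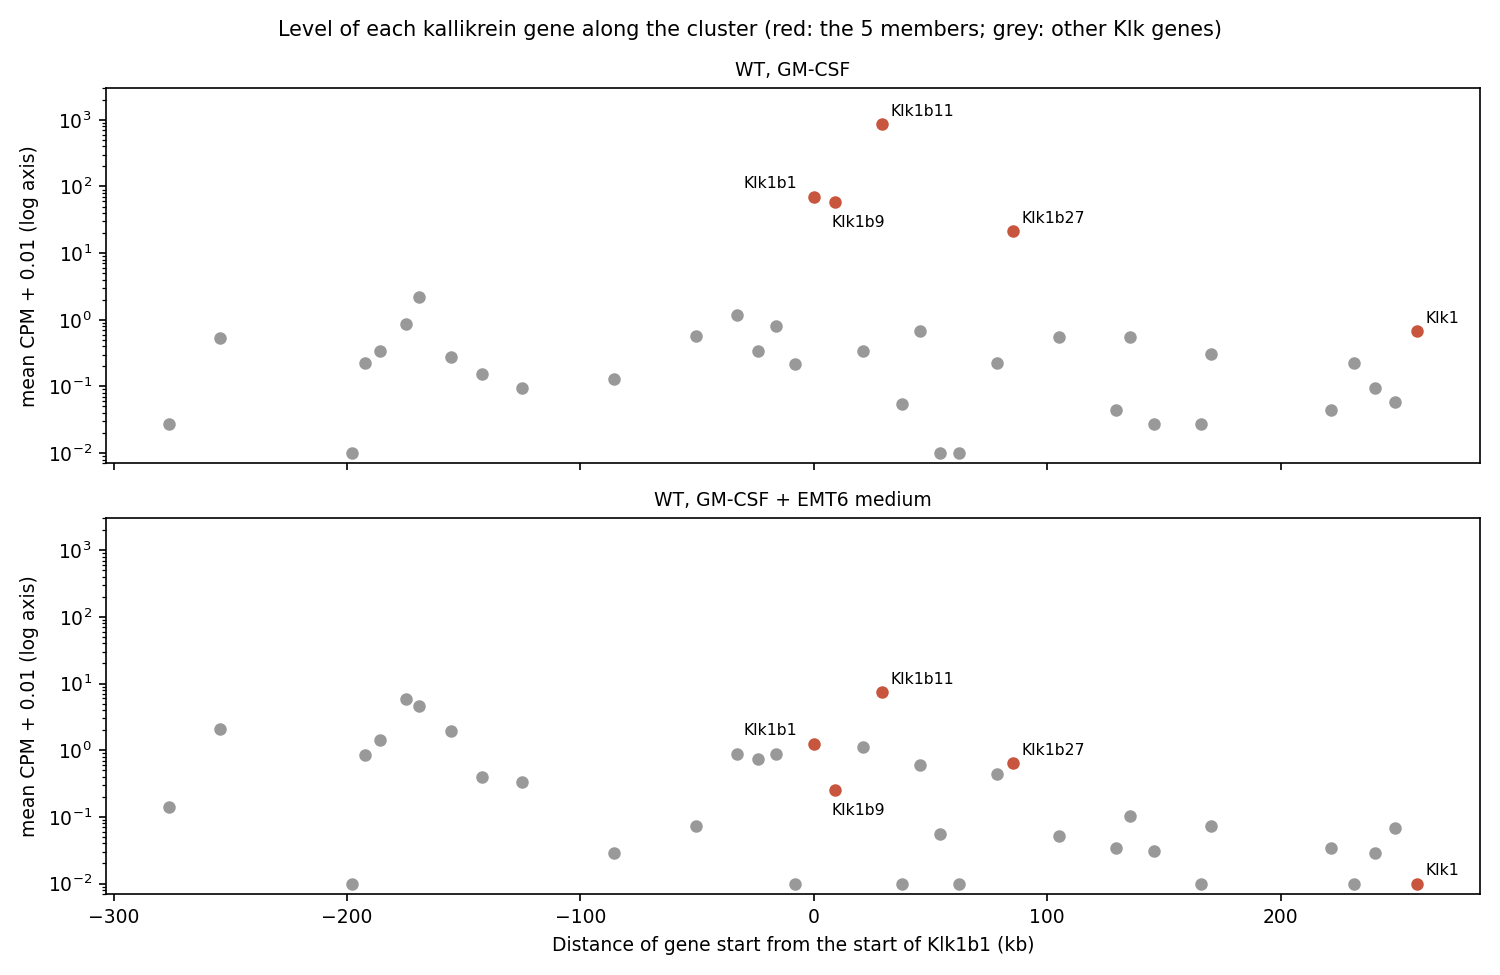
Mean CPM plus 0.01 (vertical axis, logarithmic) of each of 37 kallikrein genes against the distance of its start from that of Klk1b1 (kb), in WT under GM-CSF (top) and in EMT6 medium (bottom). Under GM-CSF 4 Klk1b genes within 89.962 kb stand above all others; in EMT6 medium only Klk1b11, at 7.35 CPM, is higher than the highest of the others, Klk9 at 5.84.

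Of a list of 36 other cluster gene names, 31 were in the count files and 14 passed the low-count filter. Under GM-CSF 2 of them, Klk9 (0.84) and Klk7 (1.06), were called higher in labelled Cysltr1-/- libraries and 0 lower by edgeR. The unadjusted p was under 0.05 for 2 higher and 0 lower, and DESeq2 called 2 higher and 0 lower. The median log2 fold change was 0.04, as over all genes, of which 10.1% were called higher and 17.2% lower. Between cultures the other cluster genes did not share one course. Klk1b26, Klk1b8 and Klk15 had lower fitted levels with IL-6 in WT (-1.93, -1.17 and -1.70, all called by edgeR). Of the 14 genes 4 were called lower and 0 higher there, against 11.3% and 10.4% of all genes, and DESeq2 called 2 lower. Klk9, Klk7 and Klk13, at the far end of the cluster before Klk1b1, were higher in EMT6 medium in WT (2.25, 2.23 and 1.53, all called). Of the 14 genes 7 were called higher and 2 lower there, against 46.8% and 34.5% of all genes. Genes with their highest counts in EMT6 medium could pass the filter through those libraries. Klk9 reached 109 to 133 counts in labelled Cysltr1-/- EMT6 libraries, beside an expected background of 10.8 to 14.2.

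The other cluster genes with at least 10 counts in 1 library were thinly covered. Under GM-CSF and with IL-6 none of Klk6, Klk10, Klk11, Klk13, Klk7, Klk1b2-ps, Klk1b7-ps, Klk1b10-ps, Klk1b14-ps, Klk1b16, Klk1b19-ps and Klk1b21 exceeded 23 counts in any library. In labelled Cysltr1-/- EMT6 libraries Klk1b10-ps had 18 to 35 counts and Klk1b7-ps 14 to 33, beside expected backgrounds of 5.75 to 7.55 and 5.07 to 6.65. There Klk7 had 40 to 45, Klk13 37 to 46 and Klk8 37 to 56. Klk1b2-ps and Klk1b14-ps, by contrast, had no counts in these libraries, and 2 to 10 and 8 to 23 in WT under GM-CSF. Klk2-ps, a pseudogene outside the list and named after its values were seen, averaged 0.569 CPM in WT under GM-CSF, 0.0709 with IL-6 and 0.0639 in EMT6 medium, with at most 14 counts in a WT library. In labelled Cysltr1-/- libraries it averaged 0.655, 0.0995 and 0.0605 CPM, with at most 18 counts.

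The nearest tested genes outside the family moved less than the kallikreins. Ctu1, a tRNA-modifying enzyme before the cluster, was at 13.3 CPM in WT under GM-CSF, 13.8 with IL-6 and 8.97 in EMT6 medium. The gene after it, 1700028J19Rik, was at 6.61, 3.75 and 1.79 CPM in the same groups. Neither passed the test between genotypes under GM-CSF (0.03, adjusted p = 0.826, and -0.15, adjusted p = 0.392, edgeR). With IL-6 Ctu1 was called lower in labelled Cysltr1-/- libraries (-0.35, adjusted p = 0.00118). In EMT6 medium Ctu1 was called lower (-0.56, adjusted p = 2.07e-04) and 1700028J19Rik higher (0.79, adjusted p = 9.73e-04). The antisense gene Gm44756, which overlaps 2 of the followed kallikreins and other cluster genes, was at 1.24 CPM in WT under GM-CSF and 1.25 in EMT6 medium.

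Kinin precursors and their activators were scarce. The substrates and activators of the kinin pathway were represented by 10 genes, of which 6 were tested. Kng1, a kininogen gene, had at most 14 counts in any library under GM-CSF or with IL-6, and Klkb1, plasma kallikrein, at most 42. Kng2, the other kininogen gene listed, was not among those named. Serping1, the inhibitor of plasma kallikrein, had at most 17 and F12, coagulation factor XII, at most 22. In EMT6 medium Klkb1 had 67 to 83 counts in WT and 102 to 159 in labelled Cysltr1-/-, beside an expected background of 27.9 to 31.5 and 38.6 to 50.6. In WT EMT6 libraries Kng1 had 18 to 23 counts, beside an expected background of 17.3 to 19.5, F12 had 11 to 26, beside 10.4 to 11.8, and Serping1 had 22 to 26, beside 12.4 to 13.9. The thinly covered genes of this list had their highest counts there and could pass the filter through those libraries, so no count of calls between cultures is given. Between genotypes under GM-CSF 0 of 6 passed by edgeR, with 2 at an unadjusted p under 0.05 and 0 by DESeq2, and with IL-6 3 were called higher in labelled Cysltr1-/-, against 12.1% of all genes.

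Both bradykinin receptors were scarce. Bdkrb1, the inducible receptor, had 5 to 12 counts in the WT libraries under GM-CSF and with IL-6, and 21 to 27 in EMT6 medium. Bdkrb2, the constitutive receptor, had 9 to 11 counts in WT and 15 to 31 in labelled Cysltr1-/- under GM-CSF and was called higher there (1.28; edgeR). In EMT6 medium it lay below its expected background in both genotypes.

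Kinin-degrading peptidases were the abundant part of the pathway. All 18 listed genes were tested, and under GM-CSF 1 was called higher and 5 lower in labelled Cysltr1-/- libraries, with a median of 0.05 against 0.04 over all genes, of which 10.1% were called higher and 17.2% lower. With IL-6 the counts were 3 and 6 (12.1% and 18.4% of all genes), and in EMT6 medium 5 and 9 (32.3% and 19.8%). Cpd, a carboxypeptidase that removes C-terminal basic residues, was the highest at 613 CPM in WT and 511 in labelled Cysltr1-/- under GM-CSF (-0.39, called). Anpep, aminopeptidase N, was at 142 and 182 CPM (0.24, called), while Xpnpep1, which cleaves after the first residue of bradykinin, was at 106 and 119 (0.05) and Ece1, an endothelin-converting enzyme, at 83.8 and 93.9 (0.05), neither called. In EMT6 medium the list divided evenly in WT, with 9 of 18 higher and 9 lower than under GM-CSF, against 46.8% and 34.5% of all genes.

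Growth factors and receptors linked to kallikreins were 13 genes, with 11 tested. Under GM-CSF 2 were called higher and 1 lower in labelled Cysltr1-/- libraries, with a median of 0.34, where 10.1% of all genes were called higher and 17.2% lower. Hbegf, an epidermal growth factor receptor ligand, was 30.7 CPM in WT and 120 in labelled Cysltr1-/- (1.85, called). Egf itself had 35 to 68 counts in WT and 54 to 121 in labelled Cysltr1-/- (0.96, called), beside an expected background of 17.1 to 37.4 and 22.6 to 36.7. The thrombin receptor F2r (69.3 and 82.2 CPM) and its relative F2rl2 (105 and 110 CPM) did not pass. F2rl2 was lower in EMT6 medium in WT, at 13.9 CPM (-3.40, called).

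Other secreted enzymes of myeloid granules, mainly serine proteases, differed between genotypes in both directions. Of 16 listed genes 15 were tested, and under GM-CSF 5 were called higher and 8 lower in labelled Cysltr1-/- libraries, with a median of -0.45, against 10.1% and 17.2% of all genes. The azurophil granule genes Elane (345 and 41.9 CPM in WT and labelled Cysltr1-/-; -3.17), Prtn3 (249 and 41.7; -2.70) and Mpo (540 and 173; -1.76) were lower. Plau, urokinase, was higher at 290 and 453 CPM (0.53). In EMT6 medium Elane was at 59.8 CPM in WT and 37.1 in labelled Cysltr1-/-, so that its fall in EMT6 medium was -3.03 in WT and -0.79 in labelled Cysltr1-/-, beside -7.36 and -6.05 for Klk1b11.

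Marker genes of cell types moved between the same groups. Summed neutrophil markers (12 genes, all with counts in every library) ran from 11376 to 12517 CPM in WT and from 5553 to 5745 in labelled Cysltr1-/- under GM-CSF, and all 12 were called lower, where 17.2% of all genes were lower and 10.1% higher. Eosinophil markers (10 genes) ran from 947 to 1034 and from 641 to 684 CPM, with 7 of 10 called lower and 0 higher by edgeR. Markers of alternative macrophage activation (10 genes) went the other way, from 7065 to 7628 CPM in WT and from 13899 to 14141 in labelled Cysltr1-/-, with 6 called higher and 4 lower. In EMT6 medium they ran from 418 to 474 and from 430 to 644 CPM, and all 10 were called lower than under GM-CSF in both genotypes, against 34.5% of all genes in WT and 32.9% in labelled Cysltr1-/-. Eosinophil markers in WT summed to 1053 to 1153 CPM in EMT6 medium. Yet 6 of 10 were called lower and 4 higher than under GM-CSF, against 34.5% and 46.8% of all genes. Their median log2 fold change was -0.96. Neutrophil markers in WT ran from 4852 to 5168 CPM there, with 11 of 12 called lower and 1 higher, against the same shares of all genes. Dendritic cell markers (12 genes) in WT ran from 7257 to 7737 CPM under GM-CSF, 4104 to 4244 with IL-6 and 1272 to 1395 in EMT6 medium. Of these 9 were called lower and 0 higher with IL-6, against 11.3% and 10.4% of all genes. In EMT6 medium 9 were called lower and 2 higher, against 34.5% and 46.8%. T and B cell markers (8 genes) in WT ran from 245 to 253 CPM under GM-CSF and from 869 to 923 in EMT6 medium. Of these 6 were called higher and 2 lower, against 46.8% and 34.5% of all genes. Their part in the kallikrein differences was not tested, and in bulk RNA fewer cells of a type and less RNA per cell cannot be told apart.

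Of the tissue in which kallikreins are best known, 9 epithelial markers of salivary gland and kidney summed to 10.7 to 13.0 CPM in WT under GM-CSF. The tenth, Cdh1, was at 689 to 719 CPM there and at 31.6 to 35.4 in EMT6 medium. Macrophage markers (10 genes) ran from 6172 to 6632 CPM in WT under GM-CSF and monocyte markers (6 genes) from 4259 to 5275. Both lists had counts for every gene in every library. Monocyte markers were at 213 to 232 CPM in WT EMT6 medium, where macrophage markers were at 5560 to 5902. Of the macrophage markers 8 of 10 were called lower and 2 higher there than under GM-CSF, against 34.5% and 46.8% of all genes. Their median log2 fold change was -1.63. Basophil and mast cell markers (10 genes) ran from 302 to 324 CPM in WT under GM-CSF and from 185 to 196 in EMT6 medium, with Mcpt4 at 0 in labelled Cysltr1-/- libraries under GM-CSF.

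The genes most like the summed kallikreins over the 6 groups were sought among 12444 named genes outside the family with a mean of at least 5 CPM in some group. Likeness was the root mean square difference between the 2 profiles of mean log2 CPM, each centred on its own mean over the groups. The median over all those genes was 2.58. The smallest value, 0.33, was that of Cd209c, a C-type lectin, followed by Sectm1a (0.37), Asgr2, a subunit of the asialoglycoprotein receptor (0.43), Rnase2a, an eosinophil-type ribonuclease (0.47), and Adra2a, an adrenoceptor (0.48). Retnla, a resistin-like protein of alternatively activated macrophages (0.48), Fcrls (0.51) and Cd209a (0.68) completed the 8 nearest.

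**Figure D5:**
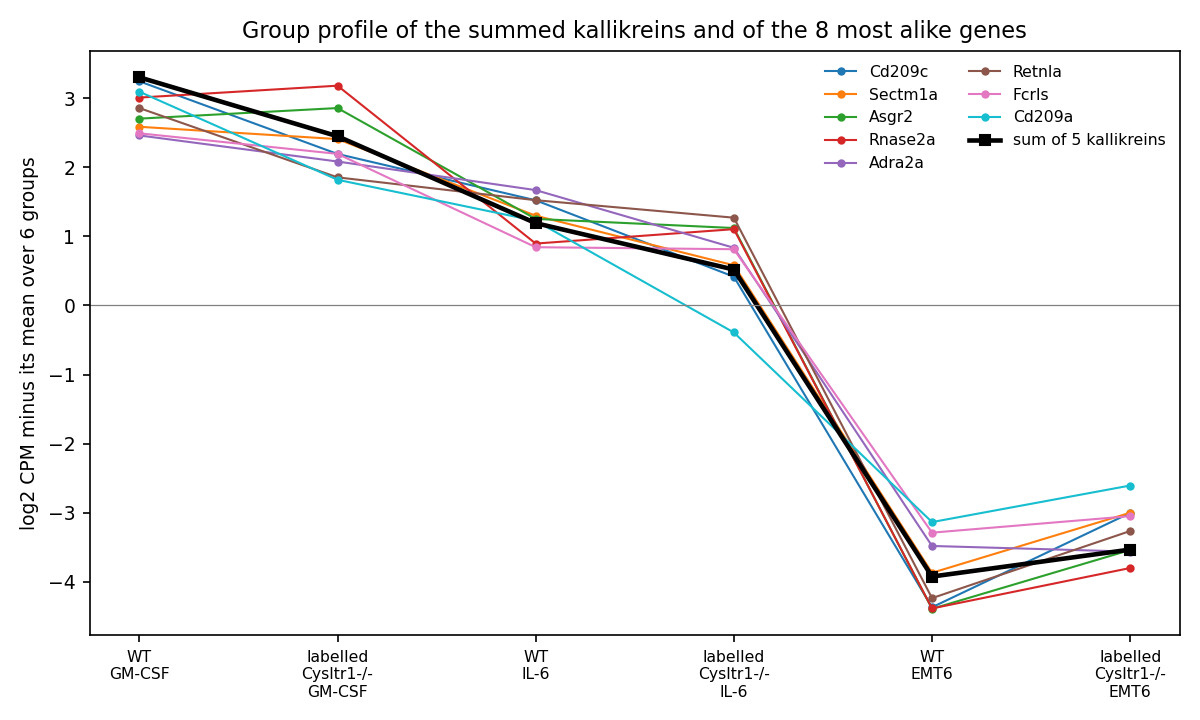
Mean log2 CPM of the summed kallikreins (black) and of the 8 most alike genes, each minus its own mean over 6 groups (vertical axis), by group. All 9 lines are highest in a GM-CSF group and lowest in an EMT6 group; Asgr2 and Rnase2a rise where the kallikreins fall between the 2 GM-CSF groups.

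Cd209c was at 17.1 ± 2.13 CPM in WT and 8.90 ± 0.464 in labelled Cysltr1-/- under GM-CSF, at 5.15 ± 0.677 and 2.67 ± 0.637 with IL-6, and at 0.146 ± 0.127 and 0.368 ± 0.195 in EMT6 medium (SD, n = 3). This is the order of the groups seen for the kallikreins. Retnla, as abundant as Klk1b11 in WT under GM-CSF at 837 ± 102 CPM, was at 452 ± 8.67 in labelled Cysltr1-/-, 330 ± 7.33 and 306 ± 11.9 with IL-6, and 8.62 ± 0.834 and 20.1 ± 3.70 in EMT6 medium. Asgr2 and Rnase2a followed the culture but not the genotype difference, with 302 ± 13.9 and 366 ± 11.7 CPM, and 398 ± 9.96 and 487 ± 14.9 CPM, in WT and labelled Cysltr1-/- under GM-CSF. These genes were picked for their likeness, so their values describe it and test nothing.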

How the data were processed

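Reads were aligned with HISAT2 2.1.0 and counted per gene with HTSeq 0.13.5 against mm10, per the submitters' processing notes; these deposited counts, whole reads per gene, are the unit used. Whether counting used strand and the read length are not given in the sources used here. Gene symbols came from GENCODE M21 (55450 of 55536 IDs matched). Numbered entries (26248), spike-ins (97, all 0) and 5 summary lines were left out of library sizes. CPM are counts scaled by the library size in gene counts. WT donors were BALB/c, per the design text of the series, and the reference is of another strain; its part in dividing reads between copies was not tested.

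All 18 libraries were fitted in edgeR 4.0.16 (R 4.3.3) with TMM scaling, filterByExpr (28334 genes kept), 1 mean per group and the quasi-likelihood F test, and p-values were adjusted by Benjamini-Hochberg per comparison with a threshold of 0.05. DESeq2 1.42.0 was an alternative. Of 50 genes simulated at each fold in the comparison of IL-6 with GM-CSF in WT (26412 genes tested), 15 were recovered at 1.2-fold, 32 at 1.5-fold, 46 at 2-fold and 50 at 4-fold. The simulation changed only 200 genes and added no background, so it does not describe recovery between genotypes or in EMT6 medium. The expected background is exon length times the density of reads in no feature, averaged over all bases outside exons. Klk1 lay below it in every EMT6 library, so it can be too high in this cluster, and results with it subtracted share that limit. Transcripts were aligned with MAFFT 7.526.

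The genes and lists were chosen with earlier results of these data known. Of each list the 4 genes highest in mean CPM are named, and of the cluster those with at least 10 counts in 1 library. Alternatives were other scalings and filters, DESeq2, only the groups compared, a replicate block, background subtraction and leaving out each library. Counting intervals (95%) cover counting error only.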

Additional observations from a re-analysis of the deposited data

Results flagged for a closer look

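The difference between genotype labels was not the same in EMT6 medium as under GM-CSF for 2 of the kallikreins, by the interaction term of the edgeR fit over 18 libraries. These include the WT libraries that helped choose the genes. For Klk1b11 the interaction was 1.31 in log2 (adjusted p = 9.21e-09, edgeR). By CPM, which is scaled by library size, it was lower in all 3 labelled Cysltr1-/- libraries than in any WT library under GM-CSF. In EMT6 medium it was higher in all 3 by CPM, but that difference depended on the scaling. The log2 genotype difference of Klk1b11 there was 0.70 with library size alone and 0.45 with the TMM scaling of the fit. In the interaction 25.6% of all genes were called. Without labelled Cysltr1-/- EMT6 replicate 2 the genotype difference of Klk1b11 in EMT6 medium was 0.00 (adjusted p = 0.983, edgeR) and its interaction was 0.88. For Klk1b9 it was 2.28 (adjusted p = 1.72e-04), from 2 to 13 counts per library in EMT6 medium. The share of reads in no annotated feature, 36.2% in WT and 50.2% in labelled Cysltr1-/- EMT6 libraries, moved with the same groups, and its part was not tested. After subtracting the expected background the interactions were 1.3 for Klk1b11 (adjusted p = 3.90e-06) and 3.64 for Klk1b9 (0.0448).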

How the results depend on the processing

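The lower levels of the 4 Klk1b genes in labelled Cysltr1-/- libraries under GM-CSF and with IL-6 kept their direction and their call under every alternative in which they were fitted. In EMT6 medium 2 kallikreins were called between genotypes, against 1 with the DESeq2 test and 0 to 2 on leaving out 1 library. With only the groups compared 0 were called, but there Klk1b9 did not pass the low-count filter and was not tested. In the interaction with IL-6, 0 were called, against 1 with library size alone, 1 with a filter on mean CPM, 2 with only the groups compared, and 0 to 1 on leaving out 1 library. In the interaction with EMT6 medium, 2 were called, against 4 with library size alone, 4 with the filter on mean CPM, and 2 to 3 on leaving out 1 library. Klk1b1 also passed with only the groups compared (adjusted p = 0.0337, edgeR). It did so without replicate 3 of labelled Cysltr1-/- with IL-6 (0.0365) or in EMT6 medium (0.0109). Klk1b27 passed without WT EMT6 replicate 2 (0.0160). The interaction of Klk1b27 reversed after background subtraction (-4.39; adjusted p = 0.0347, edgeR).

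The median log2 fold change of the 4 Klk1b genes in EMT6 medium against GM-CSF in WT was -6.83, and -6.97 with DESeq2 size factors, -6.34 with library size alone, -6.57 with the filter on mean CPM and -6.98 with the DESeq2 test. Leaving out 1 library gave -7.03 to -6.76. In labelled Cysltr1-/- it was -5.77, and -5.15 with library size alone and -6.81 with background subtracted. Against IL-6 in WT it was -4.71, and -4.86, -4.21, -4.42 and -4.87 under the same 4 settings in turn, with -4.90 to -4.63 on leaving out 1 library. Against IL-6 in labelled Cysltr1-/- it was -3.62, and -3.03 with library size alone and -4.67 with background subtracted. The IL-6 median in labelled Cysltr1-/- was -2.19 to -2.05 on leaving out 1 library. The cause of these shifts was not tested. With library size alone the median over all genes between genotypes in EMT6 medium was 0.51, and with DESeq2 size factors 0.16, against 0.27.

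Samples with the same replicate number did not deviate together: of 45 such pairs 6 had a correlation over 0.1 (median 0.0287). With a replicate block, 1 kallikrein, Klk1b1, was called in the interaction with IL-6 (adjusted p = 0.0497, edgeR), and no other call of a kallikrein changed. Klk1 was left out by the filter on mean CPM. Where a gene had under about 10 counts, as Klk1 in most libraries and Klk1b9 and Klk1b27 in EMT6 medium, depth limits what can be read from it.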
